A study of Mus musculus with 2 samples.

Results

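The genes described here encode the amino acid transporters of 7 solute carrier families (Slc1, Slc3, Slc6, Slc7, Slc36, Slc38 and Slc43) in mouse erythroblasts. They were taken by name. Each protein-coding gene whose symbol starts with one of these family names followed by "a" and a number was a member. No measured value entered this rule. The rule found 64 members among 21474 protein-coding genes, and among 43346 genes in all. A further 3 genes with matching names (Slc6a19os, Slc36a1os and Slc36a3os) are antisense transcripts with no protein and were not members. One member, Slc7a6os, matched by name only: it neighbours Slc7a6 and its relative in budding yeast helps to import RNA polymerase into the nucleus.

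The study measured polyadenylated RNA by paired-end sequencing in 2 libraries of erythroblasts, the nucleated precursors of red cells, that carried the erythroid surface antigen Ter119. The cells came from fetal liver of embryos at day 14.5, with male and female embryos pooled. No treatment, genotype or strain contrast is given, so both libraries form 1 group. They carry separate biological replicate numbers but the same donor entry, so part of the spread seen between them may be technical.

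All 9 erythroblast marker genes were at a level of 1 TPM or more (an abundance corrected for transcript length, scaled to one fixed total in each library) in both libraries. Of the hepatocyte markers 3 of 8 passed that level, with a summed level over all 8 of 14.18 TPM in library 1 and 18.27 TPM in library 2. The 3 were Apoa1 (6.01 and 8.05 TPM), Dlk1 (5.31 and 5.63 TPM) and Afp (1.27 and 1.34 TPM), while albumin (Alb) stood at 0.76 and 0.59 TPM. Macrophage markers passed in 3 of 7 cases (10.99 and 17.18 TPM summed), granulocyte markers in 3 of 6 (9.74 and 11.13 TPM), megakaryocyte markers in 2 of 5 (10.96 and 14.06 TPM), lymphocyte markers in 1 of 5 and endothelial markers in 0 of 4. Those that passed included C1qc of macrophages (4.07 and 7.02 TPM) and Mpo of granulocytes (3.46 and 5.10 TPM). Gp9 of megakaryocytes (8.32 and 10.31 TPM) and Lck of lymphocytes (3.30 and 3.93 TPM) passed too. Ly6g and Cd3e had 0 counts in both libraries. The part of such cells in the transporter levels below was not tested, and in bulk RNA fewer cells of a type cannot be told apart from less RNA per cell. The libraries held 51190555 and 44256287 expected counts, of which 14155918 and 12299432 lay outside 8 globin genes.

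Amino acids cross membranes mainly through carrier proteins. Some carriers are driven by the sodium gradient, some exchange one amino acid for another, and the heteromeric ones work as a glycoprotein heavy chain bound to a light chain that does the transport. Red cell precursors need amino acids for globin chains and glycine for the first step of heme synthesis, in which it is joined to succinyl-CoA.

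Most of the family members stayed under the level called detected here. At 1 TPM or more in both libraries stood 9 of 64 members (14.1%), or 8 without Slc7a6os (12.7% of the transporters), against 4296 of 21474 (20%) over all protein-coding genes. The 9 were Slc6a9, Slc1a5, Slc43a1, Slc38a5, Slc7a5, Slc3a2, Slc43a3, Slc38a10 and Slc7a6os. They held 97.7% of the members' summed TPM in library 1 and 98.0% in library 2. Of the other 55 members, 19 had 0 counts in both libraries, 20 had fewer than 10 counts over both, and 16 had 10 or more counts with mean levels between 0.035 and 1.075 TPM. A count of 0 allows a level of up to 0.0586 CPM (counts scaled to the library total) in library 1 and 0.0678 CPM in library 2, which is 3 counts and covers counting error only.

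The members together held 208.8 TPM in library 1 and 297.9 TPM in library 2, which is 0.0209% and 0.0298% of all TPM (mean 0.0253% ± 0.0063, SD, n = 2). Outside the globin genes the share was 0.149% and 0.191%. Most of the TPM total was thus globin RNA, so 1 TPM is a stricter limit relative to the other RNA. A member under it can still be well counted: Slc7a1 had 595 and 396 counts, and Slc38a2 had 426 and 402.

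**Figure D1:**
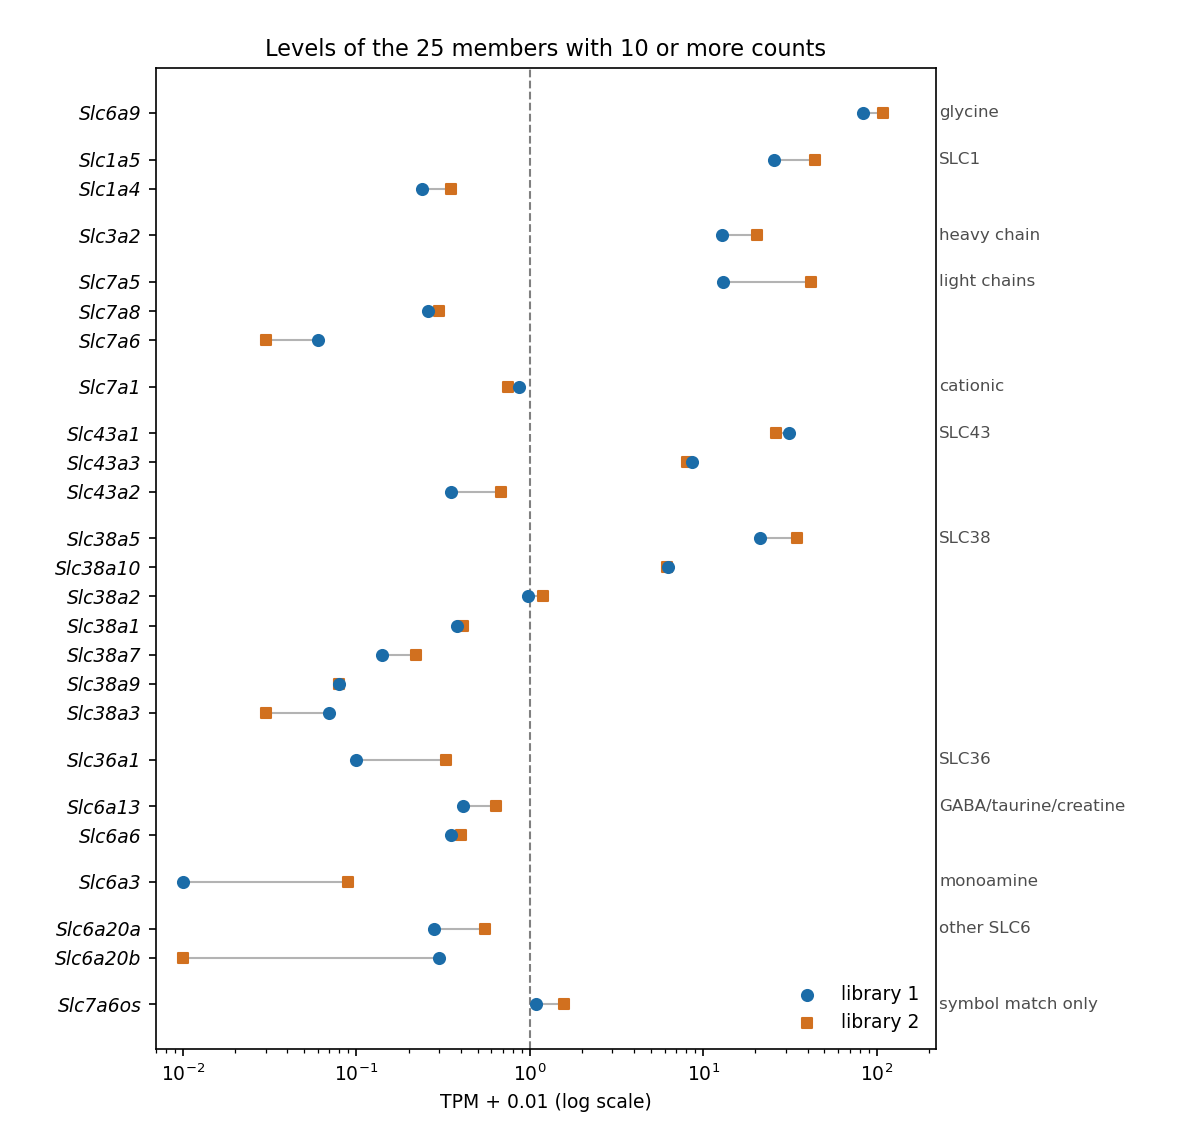
Level of the 25 members with 10 or more counts over both libraries, on a log axis of TPM + 0.01, ordered by role. Circles are library 1, squares library 2, grey lines join them, and the dashed line marks 1 TPM; Slc6a9 stands highest at 83.96 and 109.02 TPM, and the SLC36, taurine and monoamine groups lie to the left of the line.

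Slc6a9, the sodium- and chloride-coupled glycine transporter of the plasma membrane, was the most abundant member (ENSMUSG00000028542.13, chr4:117834506-117875198, plus strand, mm10). It reached 83.96 TPM in library 1 and 109.02 TPM in library 2 (96.5 ± 17.7, SD, n = 2), from 25595 and 25560 counts. That level was 2.68 and 2.47 times the second highest member of the same library and 40.2% and 36.6% of the members' summed TPM. Among protein-coding genes it lay at percentile 99.0. The other glycine transporter, Slc6a5, which loads glycine in inhibitory neurons, had 1 count in library 1 and 4 in library 2.

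The Slc6a9 reads were assigned almost wholly to 2 transcripts. Slc6a9-202 made up 66.2% and 79.3% of the gene's TPM and Slc6a9-201 made up 33.5% and 20.6%, and both have the same 1899 coding bases (633 codons). They differ in their exons outside the coding bases. Slc6a9-209, which starts coding further downstream at its own first exon, had 0 counts in library 1 and 2.44 in library 2. The beginnings of the 2 coding sequences are shown, because they tell which protein end the reads belong to: the capitals are the bases of each transcript's own start, at chr4:117843106-117843135 for Slc6a9-202 and at chr4:117849380-117849466 for Slc6a9-209 (plus strand, sequences from GENCODE M21 on mm10), and the lower case is the next stretch, which both share.
Slc6a9-202: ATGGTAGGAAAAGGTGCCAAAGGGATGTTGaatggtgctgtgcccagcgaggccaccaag
Slc6a9-209: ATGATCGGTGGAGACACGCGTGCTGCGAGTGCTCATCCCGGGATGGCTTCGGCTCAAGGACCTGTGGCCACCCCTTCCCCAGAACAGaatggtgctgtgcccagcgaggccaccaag
The capitals are 30 bases in the first and 87 in the second, so the 2 forms differ in sequence at their amino end. The 30 bases after the capitals are the same in both, and the coding sequences are 1899 and 1911 bases long in all. Exons of Slc6a9 overlap the antisense gene Ccdc24 over 1429 bases, and the strand setting of the counting is not given in the sources used here. Ccdc24 was given 15.99 and 14.90 counts, against the 25595 and 25560 of Slc6a9.

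Next in order came Slc1a5, a sodium-dependent exchanger of glutamine and other small neutral amino acids (ENSMUSG00000001918.13, chr7:16781340-16798274, plus strand). It had 25.59 TPM in library 1 and 44.17 TPM in library 2, from 6441 and 7333 counts. The other members of its family transport glutamate or small neutral amino acids. Slc1a4, the serine and alanine exchanger, had 0.23 and 0.34 TPM (85 and 97 counts). The glutamate transporters were at or near 0: Slc1a1 and Slc1a6 had 0 counts in both libraries, and Slc1a2, Slc1a3 and Slc1a7 had at most 7 counts in a library.

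The transcripts of Slc1a5 were divided differently in the 2 libraries. In library 1 the coding transcript Slc1a5-201 took 94.2% of the gene's TPM, and in library 2 it took 15.4%. Slc1a5-202, which keeps 1 intron and is annotated without a protein, took 4.38% in library 1 and 63.1% in library 2 (292.09 and 5668.9 counts). The kept intron is 71 bases long and is printed in capitals with the ends of its exons in lower case (chr7:16795953-16796023, plus strand), since it is what separates the 2 transcripts there.
Slc1a5-202: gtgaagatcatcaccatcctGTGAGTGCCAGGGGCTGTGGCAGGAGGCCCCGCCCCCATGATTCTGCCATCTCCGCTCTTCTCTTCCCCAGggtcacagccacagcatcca
The level of complete coding transcripts of Slc1a5 was 24.11 TPM in library 1 and 6.80 TPM in library 2, the opposite order of the gene's total TPM. Over all genes outside the globins, transcripts annotated with a retained intron took 4.58% of counts in library 1 and 5.05% in library 2.

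Of the SLC43 family, 2 of 3 genes passed 1 TPM. Slc43a1, a sodium-independent carrier of large neutral amino acids such as leucine (ENSMUSG00000027075.12, chr2:84838850-84863594, plus strand), had 31.33 TPM in library 1 and 26.34 TPM in library 2, from 4723 and 3125 counts. Slc43a3, known as a carrier of purine nucleobases rather than amino acids (ENSMUSG00000027074.10, chr2:84936579-84958509, plus strand), had 8.60 and 8.07 TPM, from 1365 and 1072 counts. The pair are neighbours on the same strand, 72985 bases apart, and Slc43a1 stood 3.64 and 3.26 times above Slc43a3. Slc43a2, another carrier of large neutral amino acids, had 0.34 and 0.67 TPM.

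Slc43a1 transcripts carried different starts in similar shares in both libraries. Slc43a1-203 took 46.4% and 39.4% of the gene's counts, and Slc43a1-201 took 29.6% and 35.2%. By TPM the leader was instead Slc43a1-206, a 539-base partial transcript, with 45.0% and 44.7% of TPM from 11.6% of the counts in each library. The annotated coding starts of the 2 complete transcripts are printed to show how they differ. Capitals are the bases that the other form lacks (chr2:84840774-84840838 for Slc43a1-203 and chr2:84839566-84839681 for Slc43a1-201, plus strand). Lower case is the next stretch, which both share. The atg within the lower case, at position 84840852, is the annotated coding start of Slc43a1-206.
Slc43a1-203: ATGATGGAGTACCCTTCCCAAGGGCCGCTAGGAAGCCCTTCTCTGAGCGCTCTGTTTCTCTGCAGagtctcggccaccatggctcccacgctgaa
Slc43a1-201: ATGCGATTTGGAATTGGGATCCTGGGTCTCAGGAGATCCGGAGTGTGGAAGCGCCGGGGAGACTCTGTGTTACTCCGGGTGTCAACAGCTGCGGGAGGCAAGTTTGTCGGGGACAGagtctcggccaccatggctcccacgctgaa
The capitals are 65 and 116 bases, so the annotated coding part of Slc43a1-201 is 51 bases longer. The lower-case bases are the same in both.

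The heteromeric transporters were represented by one heavy chain and one light chain. Slc3a2, the heavy chain that brings several light chains to the plasma membrane (ENSMUSG00000010095.9, chr19:8706882-8723369, minus strand), had 12.91 TPM in library 1 and 20.29 TPM in library 2, from 3115 and 3789 counts. Slc7a5, its light chain for leucine and other large neutral amino acids (ENSMUSG00000040010.10, chr8:121881150-121907694, minus strand), had 13.02 and 41.63 TPM, from 4144 and 5817 counts. The heavy chain of the kidney cystine transporter, Slc3a1, had 2 and 0 counts.

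Among the other light chains none reached 1 TPM. Slc7a8, a neutral amino acid exchanger, had 0.25 and 0.29 TPM, and Slc7a6, which exchanges cationic for neutral amino acids, had 0.05 and 0.02 TPM. Slc7a11, which imports cystine in exchange for glutamate, had 0 counts in library 1 and 2 in library 2. Slc7a10, Slc7a12 and Slc7a13 had 0 counts in both libraries. Slc7a5 therefore made up 97.5% and 99.3% of the TPM of the 6 light chains that pair with Slc3a2 (Slc7a5, Slc7a6, Slc7a7, Slc7a8, Slc7a10 and Slc7a11).

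Slc3a2 relative to the sum of those 6 light chains was 0.967 in library 1 and 0.484 in library 2 by TPM (0.725 ± 0.342, SD, n = 2). The value depended on how transcripts were counted. By expected counts per kilobase of each gene's longest transcript it was 0.916 and 0.803, and by TPM of complete coding transcripts alone it was 1.01 and 1.03. On each of these scales the 2 libraries lay closer together than by TPM.

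**Figure D2:**
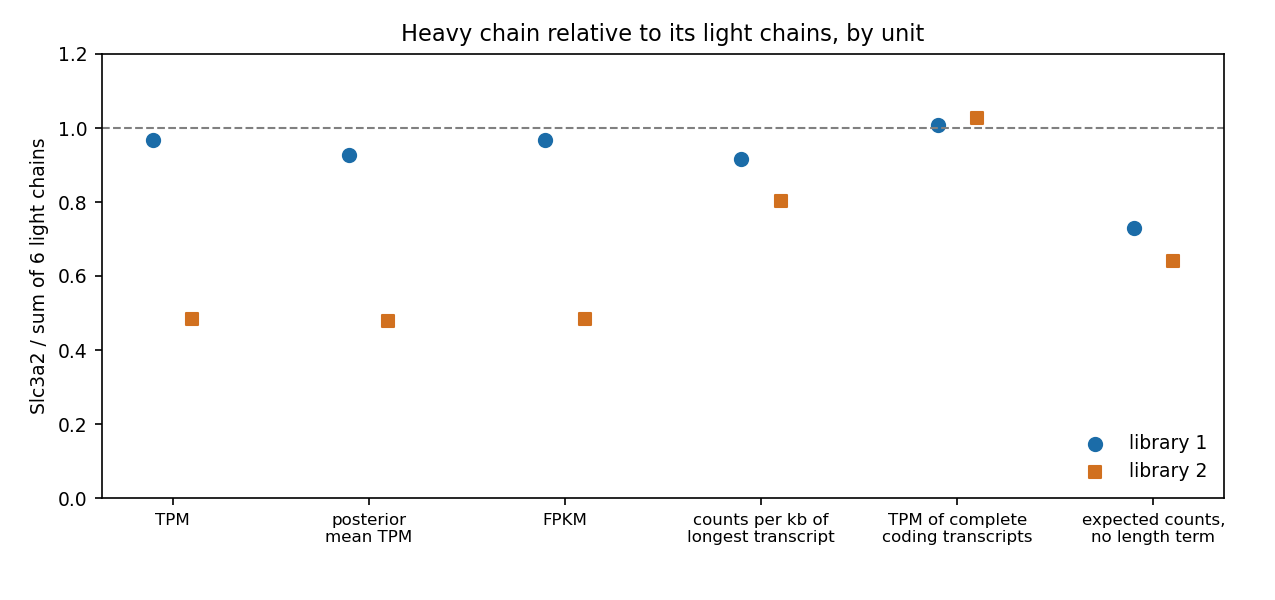
Ratio of the heavy chain Slc3a2 to the sum of its 6 light chains in library 1 (circles) and library 2 (squares), computed in 6 units along the horizontal axis; the dashed line marks equal amounts. The libraries lie apart at 0.967 and 0.484 by TPM and together at 1.01 and 1.03 by complete coding transcripts.

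The difference between units for Slc7a5 lay in a short transcript. Slc7a5-202 is 618 bases long, keeps intronic sequence near the gene's 3' side and is annotated without a protein; it took 4.25% of the gene's TPM in library 1 and 53.3% in library 2. In counts it took 0.621% and 14.0% (25.75 and 815.26 counts). The complete coding transcript Slc7a5-201 had 12.47 and 19.42 TPM. The capitals below are the 146 bases of Slc7a5-202 that are intronic in Slc7a5-201 (chr8:121883769-121883914, minus strand). Lower case is the next stretch, which is exonic in both. The capitals are shown because they separate Slc7a5-202 from Slc7a5-201 there.
Slc7a5-202: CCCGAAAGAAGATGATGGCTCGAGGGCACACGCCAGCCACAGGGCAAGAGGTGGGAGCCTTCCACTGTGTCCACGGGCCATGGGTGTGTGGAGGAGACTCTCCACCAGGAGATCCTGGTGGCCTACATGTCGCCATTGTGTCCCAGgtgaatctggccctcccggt
Slc3a2 had 2 complete coding transcripts. Slc3a2-201 took 85.7% and 93.5% of its TPM and Slc3a2-202 took 14.3% and 6.46%. The form of Slc3a2-201 that received these reads is 2572 bases long, against 1819 in GENCODE M21, so the 2 models differ. The coding starts given here are those of M21. Slc3a2-202 starts upstream and adds 117 coding bases before the start of the other form; these are in capitals below (minus strand, between 8723095 and 8713748 on chromosome 19 with an intron within), and the lower case begins with the start codon of Slc3a2-201.
Slc3a2-202: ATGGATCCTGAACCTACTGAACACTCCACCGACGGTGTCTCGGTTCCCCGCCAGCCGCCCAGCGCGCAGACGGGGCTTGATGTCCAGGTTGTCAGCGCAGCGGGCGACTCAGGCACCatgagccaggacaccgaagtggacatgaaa

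**Figure D3:**
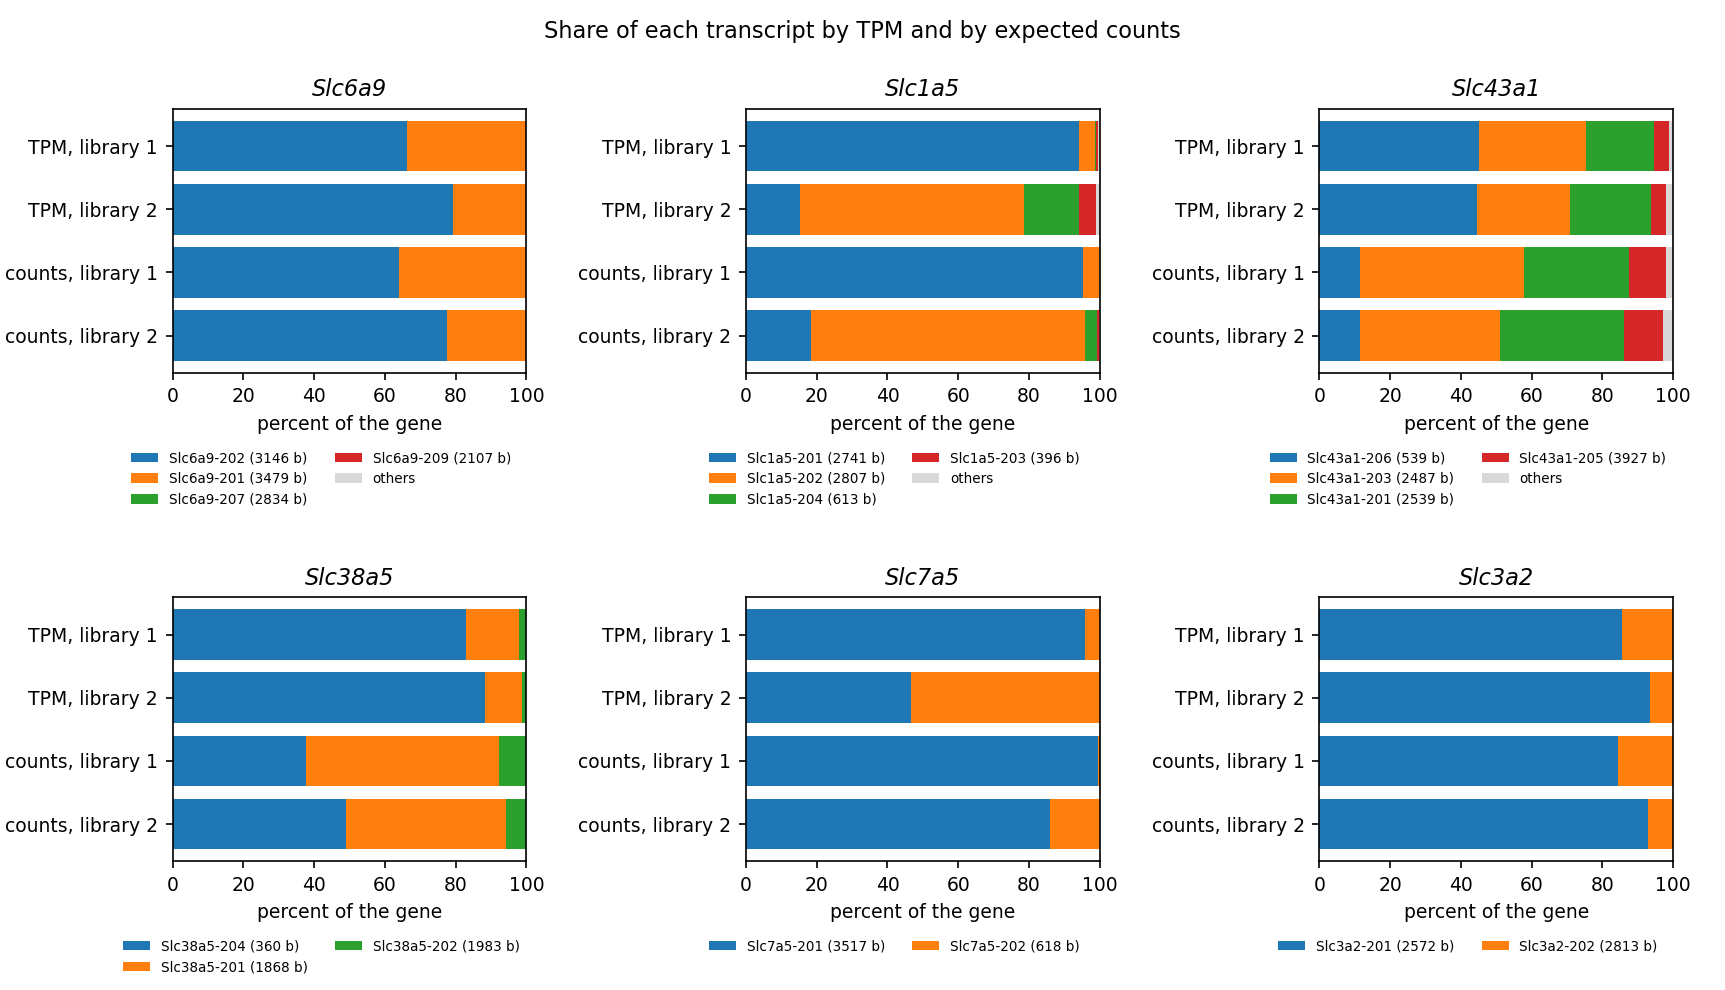
Percent of each gene's TPM (upper 2 bars of a panel) and of its expected counts (lower 2 bars) held by its transcripts in library 1 and library 2, for the 6 most abundant members; colours are transcripts, with their length in bases. Slc1a5-201 holds 94.2% of the gene's TPM in library 1 and 15.4% in library 2, and Slc38a5-204 holds 82.9% and 88.2%.

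In the SLC38 family of sodium-coupled neutral amino acid transporters, 2 of 11 members passed 1 TPM. Slc38a5, which carries glutamine, serine and glycine (ENSMUSG00000031170.10, chrX:8271133-8280179, plus strand), had 21.18 TPM in library 1 and 34.52 TPM in library 2. These came from only 990 and 1062 counts, and 82.9% and 88.2% of the TPM were assigned to Slc38a5-204, a 360-base transcript with an incomplete coding end. The complete coding transcripts of Slc38a5 had 3.62 and 4.08 TPM. Slc38a10 (ENSMUSG00000061306.11, chr11:120103960-120151346, minus strand), a less studied member, had 6.27 and 6.19 TPM from 2107 and 1769 counts.

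Slc38a2, the widely expressed carrier that other cells induce when amino acids are scarce, lay at the 1 TPM limit with 0.97 TPM in library 1 and 1.18 TPM in library 2. Slc38a1, its close relative, had 0.37 and 0.40 TPM. The lysosomal members were low: Slc38a7, which exports glutamine from lysosomes, had 0.13 and 0.21 TPM, and Slc38a9, which reports lysosomal arginine to the growth regulator mTORC1, had 0.07 TPM in both libraries (57 and 45 counts). Slc38a8 and Slc38a11 had 0 counts in both.

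The cationic and proton-coupled carriers were all below 1 TPM. Slc7a1, the main arginine and lysine carrier of many cells, whose loss in mice impairs red cell production, had 0.86 and 0.74 TPM from 595 and 396 counts. The other 4 members of its group (Slc7a2, Slc7a3, Slc7a4 and Slc7a14) had at most 6 counts in a library. Slc36a1, the proton-coupled carrier of lysosomes, had 0.09 and 0.32 TPM (46 and 27 counts), and the SLC36 group summed to 0.12 and 0.33 TPM.

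The rest of the SLC6 family, outside glycine, contributed little. The carriers of GABA, betaine, taurine and creatine summed to 0.74 TPM in library 1 and 1.04 TPM in library 2, with Slc6a13, a GABA transporter, at 0.40 and 0.63 TPM and Slc6a6, the taurine transporter, at 0.34 and 0.39 TPM. Slc6a8, the creatine transporter, had 1 and 2 counts. The monoamine transporters summed to 0.02 and 0.08 TPM, and 7 of the 10 other amino acid carriers of the family, among them the intestinal and kidney carriers Slc6a18 and Slc6a19, had 0 counts in both libraries. The rest of those 7 were Slc6a7, Slc6a14, Slc6a15, Slc6a16 and Slc6a21. Slc6a2, Slc6a11, Slc7a14 and Slc36a3 also had 0 counts in both.

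The order of the members was partly fixed by these libraries. Slc6a9 lay above Slc1a5 without overlap of their library values. Slc1a5, Slc43a1, Slc38a5 and Slc7a5 overlapped one another, so their sequence is not settled by the spread. By TPM, Slc3a2 (12.91 and 20.29) overlapped Slc7a5 (13.02 and 41.63) but lay below Slc1a5, Slc43a1 and Slc38a5 without overlap. Slc43a3 lay below Slc3a2 without overlap, Slc38a10 below Slc43a3, and Slc7a6os (1.08 and 1.56 TPM) below Slc38a10. The same 10 genes led by every unit tried, and Slc6a9 was first in each. By counts per kilobase of the longest transcript the order behind Slc6a9 and Slc1a5 was Slc7a5, Slc3a2, Slc43a1 and Slc38a5. By complete coding transcripts Slc3a2 came second and Slc38a5 came eighth.

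The leading transcript was the same in both libraries for 11 of 14 members with several transcripts and 50 or more counts in each library. By counts instead of TPM it was 12 of 14. The exceptions by TPM were Slc1a5, Slc7a5 and Slc43a2. TPM and counts named the same leader for 12 of the 14 in library 1 and 11 in library 2.

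To say where the libraries differ beyond counting error, library 1 was compared with library 2 by an exact two-sided conditional binomial test on scaled counts, adjusted by the Benjamini-Hochberg method over 10955 genes. This compares 2 libraries, not conditions. It called 11 of 25 members tested (10 or more counts over both libraries), while 44.9% of all genes tested were called, so the members' share is near the background. With the same threshold, 4 members were higher in library 1, beside 22.5% of all genes, and 7 were lower, beside 22.4%.

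Among members lower in library 1, Slc7a5 had a log2 ratio of -0.68 (adjusted p = 4.16e-119, exact binomial test). Its partner Slc3a2 had -0.47 (adjusted p = 1.24e-40, same exact test), Slc1a5 -0.38, Slc6a9 -0.19 and Slc38a5 -0.29, the last with the largest adjusted p of the 5 (2.62e-05, same exact test). Each of these 5 is among the 6 most abundant members. Also called lower were Slc6a20a (69.21 and 106 counts) and Slc6a3 (1 and 21 counts), which are scarce and are described below. The exact test calls smaller ratios where counts are higher, so abundant members are called more readily. Higher in library 1 were Slc43a1, with a log2 ratio of 0.40 (adjusted p = 4.56e-33, exact binomial test), Slc7a1, also with 0.40 (adjusted p = 1.12e-04, exact), and Slc43a3 with 0.16 (adjusted p = 0.0193, exact). The plasma membrane carriers for neutral amino acids thus included genes called in both directions.

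The 13 members with 100 or more counts in both libraries all lay within 2-fold, between -0.68 and 0.40 on the log2 scale, and 97.1% of the 5257 such genes did. Their median absolute log2 ratio was 0.29, against 0.24 over those genes. An exact negative binomial test with Benjamini-Hochberg adjustment took the spread between libraries from edgeR's common dispersion. It called 1.71% of genes and 2 members, Slc6a20b and Slc6a3, both with few counts. Since the dispersion was estimated from the same 2 libraries, the test could call few genes from the outset.

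**Figure D4:**
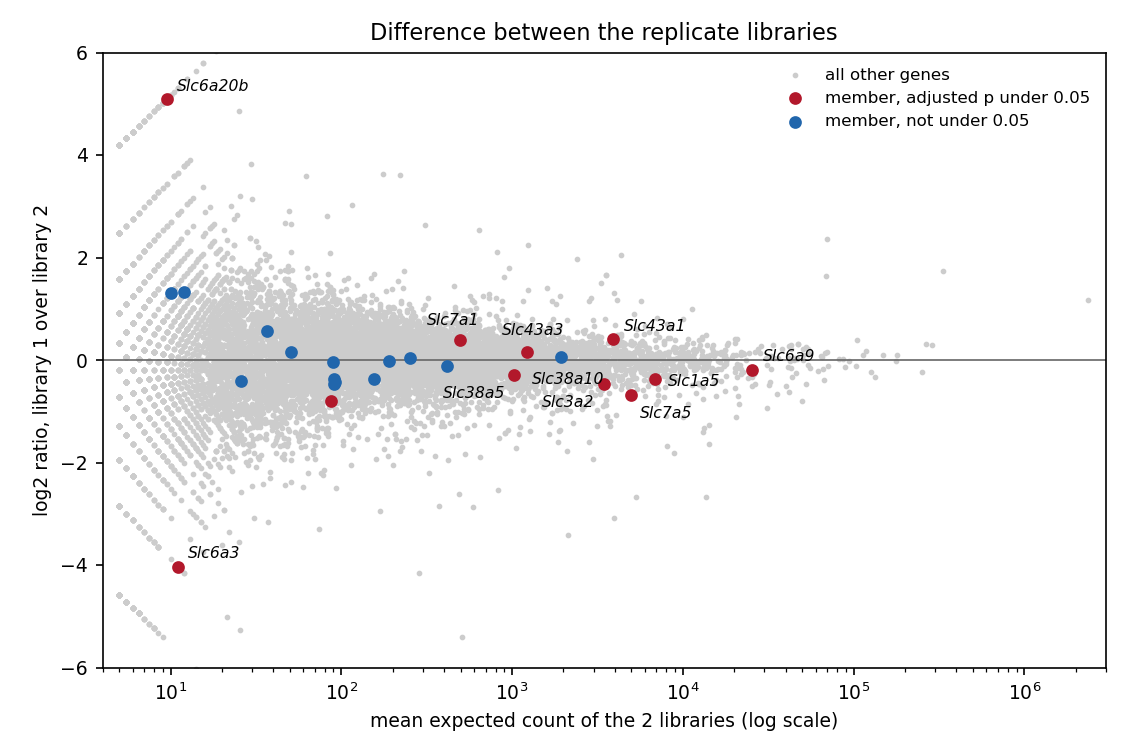
Log2 ratio of library 1 over library 2 against the mean expected count of the 2 libraries on a log axis, for 10955 genes (grey) and 25 members (red where the adjusted p of the exact binomial test was under 0.05, blue otherwise). Members with 100 or more counts in both libraries lie between -0.68 and 0.40; the ratios of Slc6a20b and Slc6a3 rest on 0 or 1 count in a library and on the added count of 0.5.

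Slc6a20a, a carrier of proline and related imino acids, and Slc6a20b are neighbouring genes that share part of their sequence. Slc6a20a had 69.21 counts in library 1 and 106 in library 2, and Slc6a20b had 18.79 and 0. They were called in opposite directions, Slc6a20b higher in library 1 and Slc6a20a lower. Slc6a20a had a log2 ratio of -0.81 (adjusted p = 0.00102, exact binomial test). For Slc6a20b the scaled 18.79 counts were 5.49-fold a floor of 3 counts in library 2, with no counting error allowed for the 18.79. The deposited TPM intervals of Slc6a20b overlapped, at 0.193 to 0.527 in library 1 and 0.0167 to 0.226 in library 2. Of all stretches of 31 bases in the transcripts of Slc6a20a, 32.0% also occur in another gene, most often Slc6a20b. For Slc6a20b it is 31.5%, most often in Sacm1l, whose exons overlap on the other strand. The sum of the pair was 88 counts in library 1 and 106 in library 2 (1.72 and 2.40 CPM), and 0.56 and 0.54 TPM. Whether reads were exchanged between these genes was not tested, and their separate values are uncertain. Slc6a3, the dopamine transporter, had 1 count in library 1 and 21 in library 2, a ratio of library 2 over library 1 of 24.0 (95% exact interval 3.85 to 991.4, counting error only).

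Genes that work with these carriers were read from lists without members. Of 5 accessory proteins 2 passed 1 TPM, led by Bsg, a membrane glycoprotein that escorts carriers to the surface, with 854.1 TPM in library 1 and 945.8 TPM in library 2. Arl6ip5 had 1.91 and 2.17 TPM, Cd44 0.09 and 0.11 TPM, and the lowest, Cltrn, was at 0. Among 11 other amino acid and peptide carriers 1 passed: Slc16a10, a carrier of aromatic amino acids, had 7.81 and 7.65 TPM. Pqlc2, a lysosomal carrier of cationic amino acids, had 0.66 and 0.70 TPM, Slc15a3, a lysosomal carrier of peptides and histidine, had 0.67 and 0.36 TPM, and the neuronal vesicle carrier Slc32a1 was at 0.

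Of 31 genes of amino acid sensing by mTORC1, 14 passed 1 TPM in both libraries. Lamtor1 and Lamtor2, subunits of the lysosomal scaffold, had 10.79 and 14.45 TPM and 7.54 and 13.52 TPM, and Rraga, one of the GTPases that bind it, had 5.96 and 6.40 TPM. The lowest was Sesn3, at 0. Of 28 tested by the exact binomial test, 6 were called higher in library 1, beside 22.5% of all genes tested, and 13 lower, beside 22.4%, with a median log2 ratio of -0.28. The negative binomial test of edgeR called 0 of the 28, beside 1.71% of all genes tested. At an unadjusted p under 0.05 in that test were 4 of the 28, beside 1084 of 10955 genes.

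The cytoplasmic aminoacyl-tRNA synthetases, which charge transfer RNA with the imported amino acids, passed 1 TPM in 16 of 20 cases, the largest share among the 4 lists without members. Vars led with 38.55 TPM in library 1 and 48.12 TPM in library 2, followed by Mars (12.22 and 18.17 TPM) and Sars (12.65 and 15.25 TPM), and Lars was lowest at 0.18 and 0.34 TPM. In the comparison of the libraries the exact binomial test called 13 of the 20, beside 44.9% of all genes tested. It called 5 synthetases higher in library 1, beside 22.5% of all genes, and 8 lower, beside 22.4%. The negative binomial test called 0 of the 20, beside 1.71% of all genes tested. At an unadjusted p under 0.05 in that test were 0 of the 20, beside 1084 of 10955 genes. The median log2 ratio was -0.02 over the 20, against -0.11 over the 25 members tested and 0.01 over all genes tested.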

How the data were processed

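Poly(A) RNA was sequenced in 2 libraries of 1 group, and the deposited tables hold values per gene and per transcript on mm10 (annotation GENCODE M4), per the file headers and a deposited listing. Which aligner and quantifier were used, and whether counting used strand, is not given in the sources used here. Expected counts, as deposited by the authors, are estimates that divide reads shared between genes and transcripts; 62 of 64 members had whole values within 0.01. The deposited TPM values include a length correction and compare genes within a library, so a short transcript with few counts can have a high TPM. The authors' FPKM and posterior mean TPM served as alternatives, and the deposited percent of a gene's TPM gave the transcript shares.

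The rule for members used names only, but the rule, the roles and the other gene lists were chosen with earlier results of these data known. Symbols, transcript names, coordinates and sequences came from GENCODE M21 on the same assembly; transcript lengths are those of the files. Named were all members at 1 TPM or more in both libraries, 16 members named whatever their level, the 5 with the largest called ratios in each direction, and from each list without members the 3 highest plus the lowest (of genes tied at 0, 1 was named). One member is not reported here by name. Levels are described without a test, as is the ratio of heavy to light chains.

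For the comparison of the libraries, expected counts were rounded and library sizes scaled with the TMM factors of edgeR 4.0.16 (R 4.3.3; 0.993 and 1.007), and an exact two-sided conditional binomial test was run on genes with 10 or more counts over both libraries, with Benjamini-Hochberg adjustment and a threshold of 0.05. Printed log2 ratios carry an added count of 0.5. At an unadjusted 0.05, 5591 genes and 15 members passed. Alternatives were DESeq2 1.42.0 size factors, totals with and without globins, other count minimums, edgeR's exact negative binomial test with the common dispersion (biological coefficient of variation 0.24), other units and each library alone. The binomial test was checked on simulated counts that held counting error only. That check cannot show how the test behaves where libraries also differ by other spread. P-values of the binomial test measure departure from counting error and hold no estimate of the spread between libraries. Only the negative binomial test takes in that spread, as the common dispersion. That dispersion was estimated from the same 2 libraries, taken as 1 group. The test therefore sets each gene's difference against the spread of all genes between these libraries, and few calls are built into it. With 2 libraries, any difference between them may be technical.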

Additional observations from a re-analysis of the deposited data

How the results depend on the processing

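The members' share of all TPM (0.0253%) was 0.108% by expected counts, 0.170% of TPM outside the globin genes and 0.0179% by complete coding transcripts, an alternative chosen after seeing the data, as were the removal of Slc7a6os and the heavy to light chain ratio by expected counts. Each library alone gave 0.0209% to 0.0298%. The negative binomial test called 187 genes in place of 4914 (1084 at an unadjusted 0.05) and 2 members in place of 11. Of the 11 member calls 9 were lost under it, and Slc6a20b and Slc6a3 kept theirs. Its dispersion came from the same 2 libraries, so a loss of calls was built in and does not tell which calls are sound. Under DESeq2 size factors, both totals and no count minimum all 11 calls were kept, and under a minimum of 20 counts 10 were kept while Slc6a20b was not tested; no direction turned. The calls numbered 4582 to 4976 genes and 10 to 13 members over these settings.

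Members at the detection limit numbered 11 at 0.5 TPM, 8 at 2 TPM, and 9 to 10 with each library alone. The ratio of Slc3a2 to its light chains ranged from 0.484 to 0.967 with each library alone and from 0.686 (expected counts) to 1.02 (complete coding transcripts) as a mean over other units. The leading 10 members were 10 of 10 the same with each library alone, and the leading transcript counts were 11 to 12. As a percent of the members' total, 14 of 20 named levels moved by at least the spread between libraries by counts per kilobase. By complete coding transcripts 13 did, by posterior mean TPM 4 and by FPKM 1. The case by FPKM was Slc7a11, for which that spread was 0. Its level was 0 by TPM, by FPKM and by complete coding transcripts, so it did not change in those units though it was counted. No paired analysis was possible because the series holds 1 group. Depth limits members under 10 counts, whose values rest on a few reads.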
